A study of Homo sapiens with 12 samples.

Results

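The 6 housekeeping genes of a 199-gene NanoString panel, GAPDH, PGK1, HPRT1, GUSB, TUBB and CLTC, were followed through all 12 samples of a miR-25 overexpression experiment in LX-2 cells. They were taken by gene symbol. The panel lists 5 of them (CLTC, GAPDH, GUSB, HPRT1 and TUBB) as internal reference genes. PGK1 was added as a glycolytic enzyme of the same wide use. Its probe was named through RefSeq and not through the panel sheet, so its role on the panel is not known from that sheet. GAPDH was also the gene to which the study normalised its qRT-PCR measurements. LX-2 is an activated human hepatic stellate cell (HSC) line, transfected here with 10 pmol/ml of a miR-25 mimic or of a non-specific control mimic based on a Caenorhabditis elegans sequence. RNA was taken 24 h or 48 h later, giving 3 control and 3 miR-25 samples at each time point. The control and the miR-25 sample of 1 replicate form a transfection pair with 1 transfection efficiency, measured with a fluorescent control miRNA in a parallel well. That efficiency was 0.59, 0.75 and 0.81 as a fraction of cells in replicates 1, 2 and 3 at 24 h and, at 48 h, 0.42, 0.61 and 0.65, and the labels do not say whether both time points of a replicate number go back to 1 transfection. Per the labels, miR-25 was 62.3 to 681 times its level in the paired control. All cells are from 1 line, both groups were treated with a mimic, and no untreated cells were among these samples.

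Housekeeping genes serve functions that nearly every cell needs, and their transcripts are therefore used as a scale against which other transcripts are read. The use rests on the transcript holding a constant level under the treatment in question, which differs between genes, cell types and culture conditions. In activated HSCs, which divide, move and secrete matrix, the glycolytic, cytoskeletal and vesicle transport machineries represented by these genes are all in use. A miRNA acts on a transcript through its seed, a short stretch near the 5′ end that pairs with the complementary bases of a target.

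The nCounter method hybridises 2 probes to a short target stretch of a transcript, and single barcoded molecules are counted without amplification. The mature miR-25-3p is given with its seed (bases 2 to 8) in capitals, since it is the molecule that was overexpressed.
hsa-miR-25-3p: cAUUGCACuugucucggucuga
The mature miRNA is from RefSeq (GRCh38.p14, chr7:100093571-100093592, minus strand). The letters that pair with its seed, GTGCAAT in the sense strand of a transcript, were in 0 of the 193 target stretches on the panel's probe sheet, each 100 bases long. This says only that the letters were not in these windows. On GRCh38.p14, GAPDH (NM_002046.3) lies at chr12:6534517-6538371, PGK1 (NM_000291.2) at chrX:78104248-78129295, HPRT1 (NM_000194.1) at chrX:134460165-134500668, GUSB (NM_000181.1) at chr7:65960684-65982213, TUBB (NM_178014.2) at chr6:30720352-30725422 and CLTC (NM_004859.2) at chr17:59619895-59696956.

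The total count over the panel was 321243 to 409581 at 24 h and 107377 to 200821 at 48 h, a mean ratio of 0.424, while the counts of the 6 positive control probes, which are spiked in at fixed amounts, fell only to 0.663 of their 24 h mean. Because every assay took 50 ng of RNA, neither number measures RNA per cell, and in bulk RNA fewer cells and less RNA per cell cannot be told apart. Nor can depth be told apart from time here. Each count was therefore expressed as a share of the panel total of its sample. The 5 markers of activated stellate cells or fibroblasts (COL1A1, CDH2, CD44, FGF2 and CXCL12) were above background in all 12 samples and held 5.47% to 9.59% of the counts, whereas 16 markers of T, epithelial, pluripotent, neural and muscle cells summed to 59 to 261 counts. Of these 16, POU5F1 was above background in every sample, CD4 in 11, GJB1 in 10, NANOG and SOX1 in 8 each, and 5 were above it in none. PPARG, a marker of quiescent stellate cells, was above it in 2 samples. Replicate 1 at 48 h stood apart from the other samples. Its control and miR-25 sample had 0.335% and 0.208% of counts on CXCL12 against 2.98% to 3.59% in the other 10. Most results that rest on this pair are given with and without it. The share of the housekeeping genes is a share of the same total to which the markers contribute, and the part of the markers in the results was not tested.

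The 6 genes together held 40.7% to 44.1% of all counts at 24 h and 43.1% to 47.4% at 48 h. GAPDH, the glycolytic enzyme that oxidises glyceraldehyde 3-phosphate, alone held 29.7% ± 1.95 (SD, n = 12) and was the most abundant transcript of the panel. TUBB, a beta-tubulin of the microtubules, came next with 7.35% ± 0.651, and PGK1, the glycolytic kinase that follows GAPDH in the pathway, ranked 3rd with 3.87% ± 0.652. HPRT1, which salvages purine bases for nucleotide synthesis, held 1.42% ± 0.154 and ranked 15th. CLTC, the heavy chain of the clathrin coat of transport vesicles, held 0.978% ± 0.102 (26th), and GUSB, a lysosomal enzyme that cleaves glucuronic acid from glycosaminoglycans, held 0.287% ± 0.105 (56th). Each transcript gives 1 count whatever its length, but probe pairs can differ in efficiency, so these ranks are of counts. The ranks are by mean count, by which the next gene after PGK1 was CXCL12. By mean share the next was CTNNB1 with 2.79%.

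**Figure D1:**
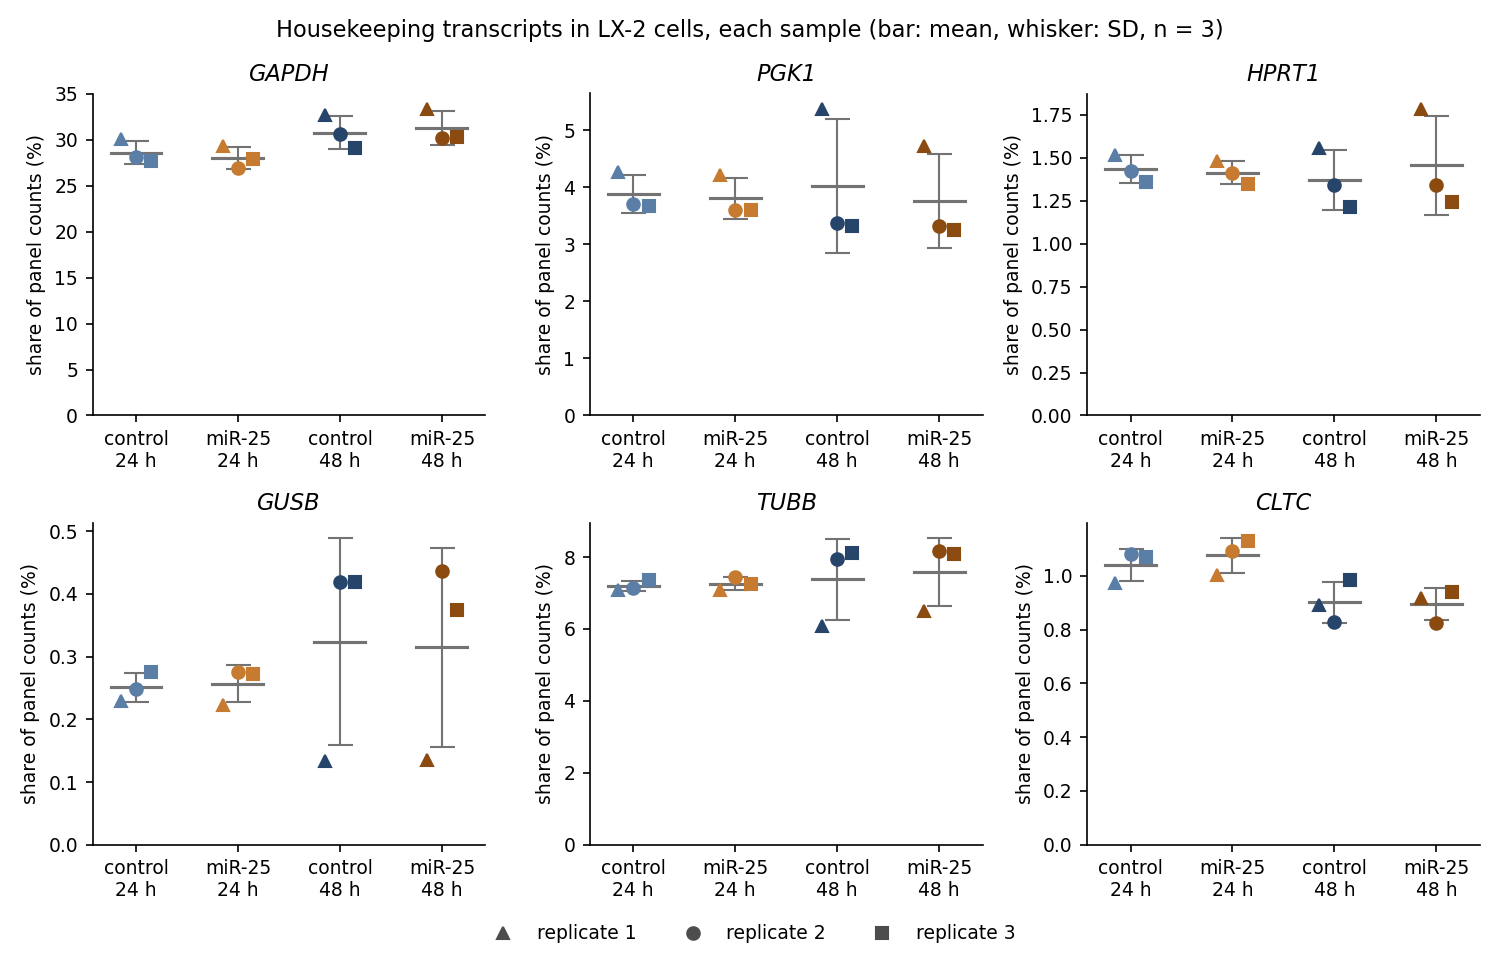
Share of the panel total (percent, each axis from 0) of the 6 housekeeping genes in each of the 12 samples, with 3 replicates per group (points), the group mean (bar) and the SD (whisker). GAPDH lies between 26.9% and 33.4%, and replicate 1 at 48 h (dark triangles) is lowest for GUSB and TUBB and highest for GAPDH, PGK1 and HPRT1.

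Of the 2 glycolytic enzymes, GAPDH varied less than PGK1. GAPDH held 30.1%, 28.1% and 27.6% of counts in the control samples of replicates 1, 2 and 3 at 24 h and 29.3%, 26.9% and 28.0% in the miR-25 samples. At 48 h it held 32.7%, 30.6% and 29.1% in the controls and 33.4%, 30.2% and 30.3% in the miR-25 samples. The highest GAPDH share was 1.24 times the lowest, the control groups of the 2 time points overlapped, and those of the miR-25 samples did not. PGK1 held 4.26%, 3.71% and 3.67% in the 24 h controls and 4.21%, 3.60% and 3.60% in the 24 h miR-25 samples. At 48 h its shares were 5.37%, 3.37% and 3.31% in the controls and 4.71%, 3.32% and 3.26% in the miR-25 samples. In both treatments replicate 1 was the highest PGK1 sample, and the other 4 samples at 48 h were below all 6 at 24 h.

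Within each group HPRT1 ranked the samples as PGK1 did. Its shares were 1.52%, 1.43% and 1.36% in the controls and 1.48%, 1.41% and 1.35% in the paired miR-25 samples at 24 h. In the 48 h controls they were 1.56%, 1.34% and 1.22%, beside 1.79%, 1.35% and 1.24% in the miR-25 samples. The 2 samples of replicate 1 at 48 h were the highest of all 12, and the others at 48 h were below every 24 h sample of the same treatment. GUSB moved the other way and over the widest range. It held 0.229%, 0.249% and 0.275% in the 24 h controls and 0.222%, 0.276% and 0.272% in the 24 h miR-25 samples. At 48 h it held 0.133%, 0.418% and 0.420% in the controls and 0.135%, 0.436% and 0.373% in the miR-25 samples. The GUSB samples at 48 h fell into 2 separate levels, 1 below and 1 above all samples at 24 h, and the highest share was 3.27 times the lowest. These shares rest on 143 to 1074 GUSB counts per sample, and the 95% Wilson intervals of the lowest sample (0.113% to 0.157%) and of the highest (0.405% to 0.469%) did not meet. Intervals of this kind cover counting error only.

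Within each group TUBB ranked the samples as GUSB did, with smaller steps. Its shares at 24 h were 7.08%, 7.14% and 7.35% in the controls and 7.08%, 7.44% and 7.24% in the miR-25 samples. At 48 h they were 6.09%, 7.94% and 8.11% in the controls and 6.49%, 8.17% and 8.08% in the miR-25 samples. Replicate 1 at 48 h was the lowest TUBB pair, and the other 4 samples at 48 h were the highest. CLTC was the only one of the 6 in which replicate 1 did not leave the range of the other 48 h samples. It held 0.973%, 1.08% and 1.07% in the 24 h controls and 1.00%, 1.09% and 1.13% in the 24 h miR-25 samples. At 48 h it held 0.891%, 0.828% and 0.983% in the controls and 0.919%, 0.826% and 0.941% in the miR-25 samples. The CLTC groups of the 2 time points overlapped in the controls and not in the miR-25 samples.

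No housekeeping gene passed the test between 48 h and 24 h. The counts were compared with edgeR's quasi-likelihood test, with the panel total as library size, separately in the control and in the miR-25 samples, which are paired and not independent of each other, with Benjamini-Hochberg adjustment over the 136 genes that averaged 20 counts or more. Of the 6 genes 0 were called in the controls, where 5.15% of the 136 genes were called, and 0 in the miR-25 samples, where 7.35% were. At an unadjusted p under 0.05 the numbers of housekeeping genes were 0 in the controls and 2 in the miR-25 samples, where 42 and 43 of the 136 genes were. DESeq2 called 0 and 1 of the 6, against 22 and 33 of the 136 genes, and limma 0 and 0, against 6 and 7. For CLTC the log2 fold change at 48 h was −0.21 in the controls (standard error 0.10, adjusted p = 0.202) and −0.26 in the miR-25 samples (standard error 0.10, adjusted p = 0.130), both from edgeR's quasi-likelihood test, and the second is the call that DESeq2 made (−0.28, adjusted p = 0.0304). GAPDH was at 0.10 in the controls (95% interval −0.06 to 0.27) and at 0.16 in the miR-25 samples (0.02 to 0.30, adjusted p = 0.130, edgeR). The intervals were widest for GUSB, from −0.51 to 1.27 around 0.38 in the controls and from −0.60 to 1.19 around 0.30 in the miR-25 samples. Both GUSB intervals reached from a fall to a rise. The values for PGK1 were 0.05 and −0.01, for HPRT1 −0.07 and 0.04, and for TUBB 0.04 and 0.06 (controls first), each smaller than its standard error.

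These results changed when replicate 1 at 48 h was left out, a choice that removes 1 of 3 pairs at that time. In the controls 3 of the 6 genes then passed, where 39.7% of the 136 genes did, and in the miR-25 samples 5 of the 6, where 45.6% did. GUSB rose by 0.74 on the log2 scale in the controls (standard error 0.098, adjusted p = 0.000555) and by 0.65 in the miR-25 samples (standard error 0.11, adjusted p = 0.00202), by edgeR's quasi-likelihood test. By the same edgeR test TUBB rose by 0.16 in both (adjusted p = 0.0152 and 0.00548) and PGK1 fell by 0.22 and 0.21 (adjusted p = 0.0347 and 0.0359). In the miR-25 samples GAPDH rose by 0.11 (adjusted p = 0.0325) and CLTC fell by 0.28 (adjusted p = 0.0167), again by edgeR. HPRT1 was at −0.17 in the controls (adjusted p = 0.0814) and at −0.13 in the miR-25 samples (adjusted p = 0.114, edgeR), and GAPDH (0.06) and CLTC (−0.20) did not pass in the controls. With only 2 samples at 48 h the estimate of their spread leans on the 24 h samples. The pair was left out because it stood apart in these same data, so the p-values without it describe the remaining samples only.

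The same dependence showed in the ranges of the shares. With all samples, the 48 h and 24 h shares did not overlap for 0 of the 6 genes in the controls, against 35.3% of the 136 genes, and for 2 of the 6 in the miR-25 samples (GAPDH higher, CLTC lower), against 41.2%. Without replicate 1 at 48 h they did not overlap for 4 of the 6 in the controls (GUSB and TUBB higher, PGK1 and HPRT1 lower), against 64% of the 136 genes. In the miR-25 samples the ranges were then apart for all 6, with GAPDH, GUSB and TUBB higher and PGK1, CLTC and HPRT1 lower at 48 h, against 74.3%. The count of 4 of 6 in the controls is close to the share of the panel, and 6 genes are too few to tell the other counts from it.

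Replicate 1 at 48 h differed from the other 4 samples at that time in 5 of the 6 genes, in the control and the miR-25 sample alike. GUSB in this pair was at 0.326 times the mean of the other 48 h samples and TUBB at 0.779 times. PGK1 was at 1.52 times, HPRT1 at 1.30 times and GAPDH at 1.10 times. CLTC, at 1.01 times, lay within the range of the others. Over the panel 67.6% of the 136 genes were outside that range, 35 of them above and 57 below, so the housekeeping genes took part in a difference that most genes showed. Against all other 10 samples of both time points, the same 5 genes were outside the range (GAPDH, PGK1 and HPRT1 above, GUSB and TUBB below), where 44.9% of the 136 genes were. The median size of the difference over the 136 genes was 1.27-fold. GAPDH and CLTC were below this size, HPRT1 and, taken as a fall, TUBB were close to it, and PGK1 and GUSB were above it. This pair also had the lowest transfection efficiency (0.42) and, in its control sample, the lowest total count (107377), and its COL1A1 shares of 0.740% and 0.540% were the lowest. The part of these in the difference was not tested.

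**Figure D2:**
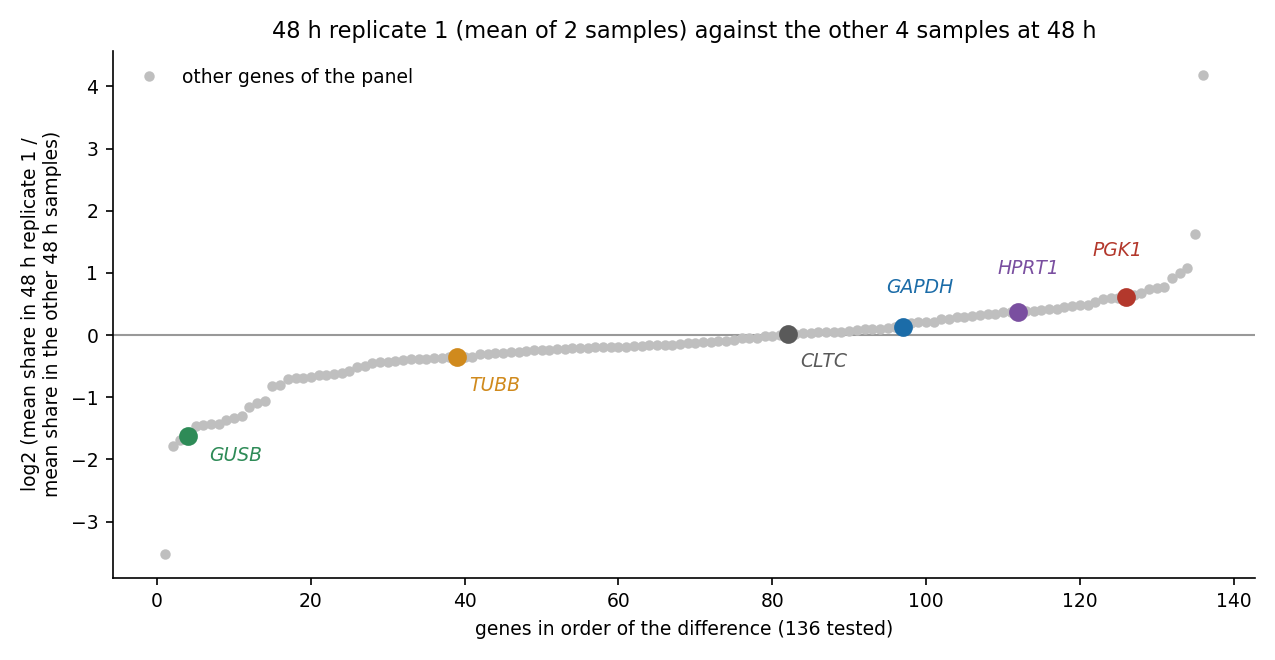
For each of 136 genes, in order, the log2 ratio of its mean share in the 2 samples of 48 h replicate 1 to its mean share in the other 4 samples at 48 h, with the 6 housekeeping genes in colour. GUSB, at a ratio of 0.326, is near the low end, PGK1, at 1.52, is toward the high end, and CLTC is at 1.01.

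Replicate 1 at 24 h lay on the same side for 5 of these genes. Its 2 samples were outside the range of the other 4 samples at 24 h for all 6 genes, against 50.7% of the 136 genes. Of all 136 genes, 10 were above that range and 59 below. GAPDH was at 1.07 times, PGK1 at 1.16 times and HPRT1 at 1.08 times the mean of the others, each above their range. GUSB was at 0.843 times, CLTC at 0.904 times and TUBB at 0.971 times, each below it. The ratios were closer to 1 than those of replicate 1 at 48 h for every gene except CLTC. The 24 h replicate 1 had the lowest efficiency of its time point too (0.59), and the part of the efficiency was not tested. Over all 136 genes, deviations of samples with the same replicate number at 24 h and 48 h had correlations of −0.10 to 0.06.

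The ratios among the housekeeping genes, which need no library size, differed in how steady they were. GAPDH and HPRT1 kept a nearly fixed ratio at 24 h, 19.9 ± 0.574 counts of GAPDH per count of HPRT1 (SD, n = 6). At 48 h the ratio was 23.4 ± 0.927 without replicate 1 (n = 4) and 21.0 and 18.7 in the control and miR-25 sample of replicate 1. The ratio of GAPDH to PGK1 was 7.39 ± 0.318 at 24 h and 9.06 ± 0.217 at 48 h without replicate 1, and it was 6.08 and 7.08 in replicate 1. GAPDH over TUBB was 3.93 ± 0.235 at 24 h, 3.72 ± 0.111 at 48 h without replicate 1, and 5.36 and 5.14 in replicate 1. The ratio with the widest range was that to GUSB. There were 113 ± 15.4 counts of GAPDH per count of GUSB at 24 h, 73.2 ± 5.58 at 48 h without replicate 1, and 245 and 247 in the 2 samples of replicate 1. In this ratio replicate 1 at 48 h was above all other 10 samples.

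Over the 12 samples the log2 shares of GUSB and TUBB had a Pearson correlation of 0.98, and it was 0.98 without replicate 1 at 48 h (10 samples). PGK1 and HPRT1 had 0.85 and 0.89, whereas PGK1 had −0.95 with GUSB and −0.96 with TUBB. These values are a description of 12 samples in 6 pairs, in which the samples of a pair share a transfection efficiency and the shares of a sample share a total, and GAPDH alone makes up 29.7% of that total on average. GAPDH and CLTC had −0.76 (−0.86 without replicate 1), and the correlations of GAPDH with the other 4 changed sign when replicate 1 was left out, from 0.58 to −0.14 with PGK1, for example.

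**Figure D3:**
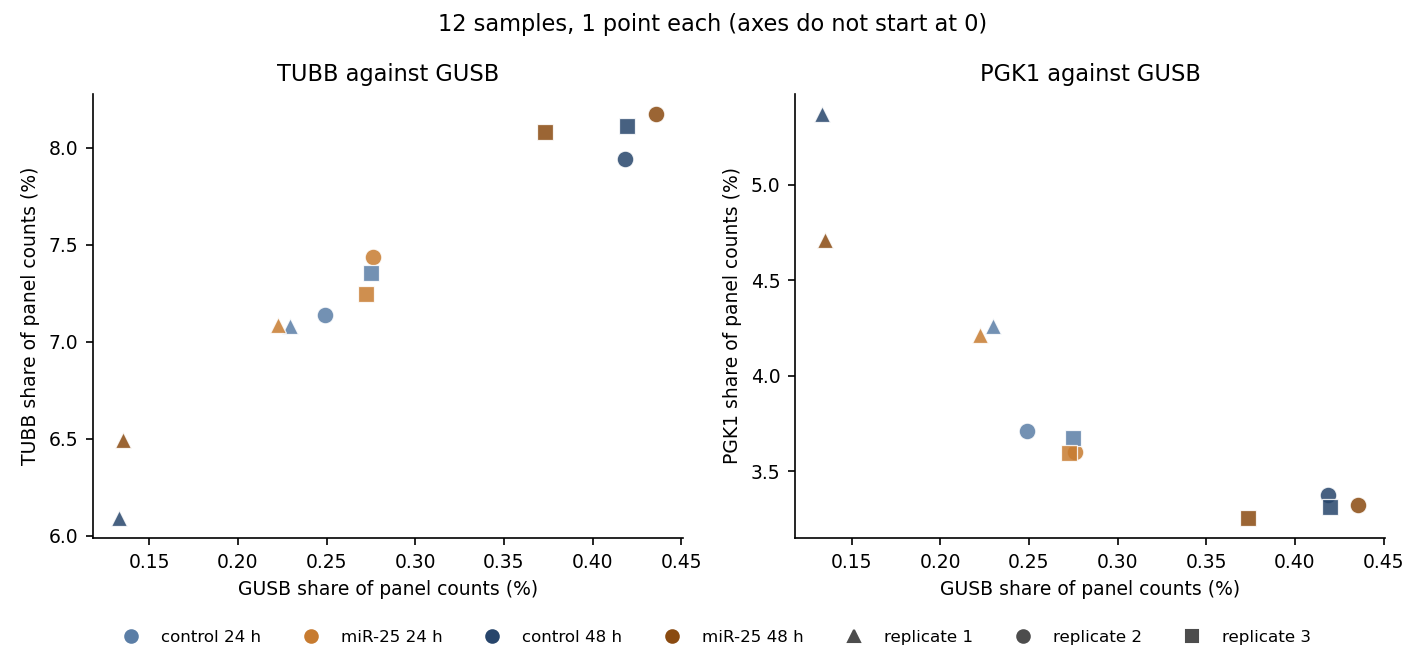
Share of panel counts (percent) of TUBB (left) and of PGK1 (right) against that of GUSB in the 12 samples, with colour for group and marker shape for replicate, on axes that do not start at 0. TUBB is lowest and PGK1 highest in the 2 samples with GUSB at 0.133% and 0.135%, and the other 4 samples at 48 h lie at the opposite end with GUSB between 0.373% and 0.436%.

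Among the 108 genes that averaged 100 counts or more, the 3 whose log2 shares were most like those of each housekeeping gene over the 12 samples were taken by Pearson correlation. For GUSB they were TUBB (0.98), the Notch ligand JAG1 (0.96) and the Wnt receptor FZD2 (0.95), and for TUBB they were GUSB, FZD2 (0.98) and JAG1 (0.96). For CLTC they were APC, a scaffold of the beta-catenin destruction complex (0.96), the growth factor receptor FGFR1 (0.90) and the acetyltransferase EP300 (0.90), with 0.96, 0.93 and 0.90 without replicate 1 at 48 h. For PGK1 they were HPRT1, PRKCI (0.84) and FGF2 (0.82), of which the latter 2 dropped to 0.37 and 0.27 without replicate 1. For HPRT1 they included PGK1 (0.85) and PRKCI (0.75, and 0.34 without replicate 1). For GAPDH they were cyclin CCNE1 (0.89), CSNK1A1 (0.87) and PRKACA (0.86), with 0.74, 0.62 and 0.65 without replicate 1.

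Stability was measured as the SD of the log2 share over the 12 samples. The median of this SD over the 136 genes was 0.25, and 5 of the 6 housekeeping genes were below it. Many of the 136 genes have fewer counts than these, and counting error alone would give a median SD of 0.072. The median is thus not a measure of steadiness at equal counts. GAPDH had an SD of 0.094 (7th lowest of 136), TUBB 0.13 (20th), HPRT1 0.15 (27th), CLTC 0.15 (28th) and PGK1 0.23 (61st). GUSB, with 0.58, ranked 121st of 136. GAPDH makes up 29.7% of the panel total on average, which damps changes in its share, so its rank of 7th holds only for shares of that total. The order of GAPDH and TUBB also depended on the scaling. The SDs of GAPDH and TUBB were 0.14 and 0.084 with TMM and 0.15 and 0.12 with the total without the 6 genes. With the positive control probes they were 0.37 and 0.49. In every one of the 6 this SD was larger than counting error alone would give, which was 0.0057 for GAPDH, 0.012 for TUBB, 0.016 for PGK1, 0.026 for HPRT1, 0.032 for CLTC and 0.064 for GUSB. For GAPDH, which counts 77196 molecules per sample on average, counting error alone was thus well below the measured 0.094. Any other part of the depth was not tested. Without replicate 1 at 48 h the SD was 0.064 for GAPDH, 0.087 for TUBB, 0.10 for HPRT1, 0.14 for PGK1, 0.16 for CLTC and 0.38 for GUSB, against a median of 0.20.

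**Figure D4:**
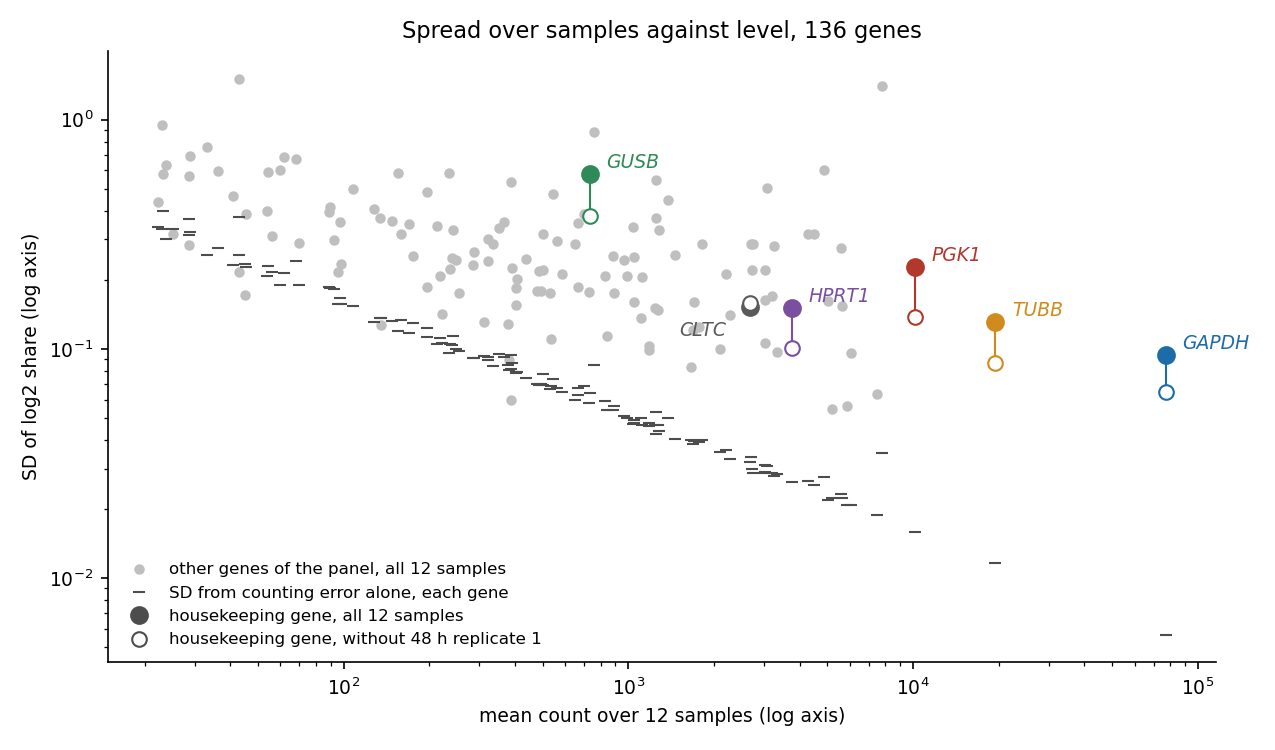
SD of the log2 share over samples against the mean count, both on log axes, for 136 genes, with the 6 housekeeping genes in colour (filled with all 12 samples, open without 48 h replicate 1) and, for each gene, the SD that counting error alone would give (dashes). GAPDH, at 0.094, is among the lowest and GUSB, at 0.58, among the highest, and all 6 lie above their dash.

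The spread between pairs was larger than that between the 2 samples of a pair for all 6 genes at 48 h. At 24 h this held for all but TUBB. The spread within pairs is pooled over the 6 pairs of both time points, and that between pairs is of means of 2 samples. At 48 h the spread between pairs includes replicate 1, and it was not computed without that pair. TUBB, for example, was at 6.09% and 6.49% in replicate 1 and at 7.94% to 8.17% in the other 48 h samples. Within pairs the SD was 0.030 for GAPDH, 0.034 for TUBB, 0.035 for CLTC, 0.058 for PGK1, 0.059 for HPRT1 and 0.069 for GUSB, against a median of 0.092 over the 136 genes. Counting error alone would give a median of 0.072 over the 136 genes, many of which have fewer counts than these. For GAPDH, TUBB and PGK1 it would give 0.0057, 0.012 and 0.016, so the median is not a measure of their steadiness at equal counts. Between the 3 pairs at 24 h it was 0.024 for TUBB, 0.060 for GAPDH, 0.073 for HPRT1, 0.084 for CLTC, 0.13 for PGK1 and 0.14 for GUSB, and between those at 48 h it was 0.081 for GAPDH, 0.11 for CLTC, 0.21 for TUBB, 0.23 for HPRT1, 0.35 for PGK1 and 0.93 for GUSB. GUSB and CLTC varied within a pair by about as much as counting error gives (0.064 and 0.032).

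By a measure that uses only the housekeeping genes, the mean SD of a gene's log2 ratios to the other 5, GAPDH was the steadiest over 12 samples (0.27), followed by HPRT1 (0.29), TUBB (0.30), CLTC (0.31), PGK1 (0.35) and GUSB (0.64). At 24 h alone all were between 0.098 (TUBB) and 0.17 (GUSB), and at 48 h without replicate 1 between 0.071 (PGK1) and 0.16 (CLTC). GUSB was thus close to the others within a time point once replicate 1 was left out, and the order of the genes changed with the samples used. The pair of genes with the steadiest ratio was PGK1 and HPRT1 over all 12 samples (SD of the log2 ratio 0.13) and without replicate 1 (0.067), and it was GAPDH and HPRT1 at 24 h (0.042).

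Several genes of the panel that are not among its internal references were steadier than these. The 5 with the smallest SD among the 108 genes that averaged 100 counts or more were CDC2, the cyclin-dependent kinase that drives mitosis (0.055), the histone deacetylase HDAC2 (0.057), the kinase NLK (0.060), CTNNB1, which encodes beta-catenin (0.063), and CSNK2A1, the catalytic subunit of casein kinase 2 (0.083). They were picked as the lowest of 108 on these samples, so their values are a description and are not set against the housekeeping genes by a test. Of 17 widely expressed genes of general function on the panel, taken as a list for comparison, the median SD was 0.15, beside 0.15 for the housekeeping genes, and without replicate 1 at 48 h the medians were 0.10 and 0.12. The range over the 17 was 0.057 (HDAC2) to 0.58 (FURIN and ALDH2). The 8 cell cycle genes had a median of 0.18 and a range of 0.055 (CDC2) to 0.60 (CCND1).

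Between 48 h and 24 h in the controls, 1 of the 17 general-function genes was higher by edgeR's quasi-likelihood test and 0 were lower, against 4 higher and 3 lower of all 136. The gene was FURIN, a protease that matures secreted proproteins, which was at 1.11 on the log2 scale (standard error 0.11, adjusted p = 0.00277). DESeq2 called 5 of the 17, against 22 of the 136, and limma 1, against 6 of the 136. Without replicate 1 at 48 h edgeR called 5 higher and 3 lower of the 17 and 1 higher and 2 lower of the 8 cell cycle genes, against 37 higher and 17 lower of all 136. ALDH2, the mitochondrial aldehyde dehydrogenase, was at 0.92 (adjusted p = 0.0927), and CDC42 and PPP2CA were at −0.32 and −0.27 (adjusted p = 0.139 and 0.159) in the same edgeR test. The median over the 17 was 0.05 against 0.04 for the housekeeping genes and 0.13 for all 136. Of the 8 cell cycle genes 0 were called by edgeR (1 at an unadjusted p under 0.05, against 42 of the 136), 0 by limma and 2 by DESeq2. The extremes by edgeR were the cyclins CCND1 at −0.80 (adjusted p = 0.124) and CCND3 at 0.24 (adjusted p = 0.247).

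miR-25 overexpression moved none of the 6 genes past the test at either time point. With the transfection pair as a block in edgeR's quasi-likelihood fit of all 12 samples, 0 of the 6 were called at 24 h, where 0% of the 136 genes were, 0 at 48 h, where 0.735% were (1 gene), 0 over both time points, where 0% were, and 0 for the difference between the time points, where 0% were. At an unadjusted p under 0.05 the numbers of housekeeping genes were 0, 1, 1 and 0, and of all genes 9, 17, 26 and 8. DESeq2 and limma called 0 of the 6 in each, and 0 or 1 of the 136 genes. The 95% intervals of the 6 log2 fold changes lay between −0.11 and 0.15 at 24 h and between −0.19 and 0.17 at 48 h, which holds for shares of the panel total. The narrowest was that of GAPDH over both time points, −0.04 to 0.04 around −0.0018.

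**Figure D5:**
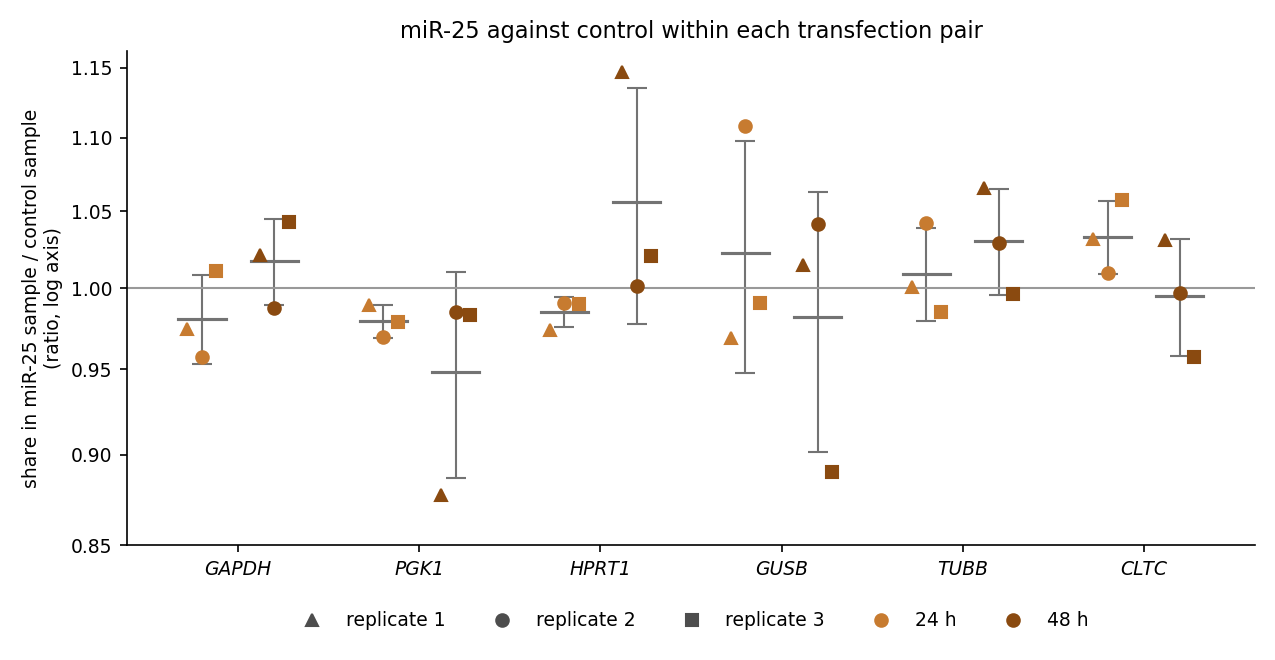
Ratio of the share in the miR-25 sample to that in the control sample of the same transfection (log axis), for the 6 housekeeping genes at 24 h (light) and 48 h (dark), with 3 pairs each (points), their mean (bar) and SD (whisker). All 6 PGK1 ratios are below 1, and the HPRT1 ratios are below 1 at 24 h and above 1 at 48 h.

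The GAPDH share in the miR-25 samples was 0.975, 0.957 and 1.01 times that of the paired control in replicates 1, 2 and 3 at 24 h and 1.02, 0.988 and 1.04 times at 48 h. It lay on both sides of 1 at each time point, and its mean over the 6 pairs was 0.999 ± 0.0317 (SD). For PGK1 the 24 h ratios were 0.990, 0.969 and 0.979, and those at 48 h were 0.877, 0.985 and 0.983. As a share of panel counts PGK1 was lower with miR-25 in 6 of 6 pairs, although scaled to the positive control probes it was higher by 0.15 on the log2 scale, and it was the only one of the 6 genes on 1 side in all pairs, against 6.62% of the 136 genes (7 higher and 2 lower). The 2 time points together gave a PGK1 difference of −0.05 on the log2 scale (standard error 0.025, unadjusted p = 0.0494, adjusted p = 0.254 by edgeR's quasi-likelihood test), and without replicate 1 at 48 h it was −0.03 (standard error 0.022, adjusted p = 0.661 by the same test). The value at 48 h was −0.08 with that pair and −0.02 without it, so 1 pair set most of it.

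HPRT1 was at 0.974, 0.991 and 0.990 times the control at 24 h and at 1.15, 1.00 and 1.02 times at 48 h. The pairs were all below 1 at 24 h and all above 1 at 48 h, and the difference between the time points, 0.10 on the log2 scale (95% interval −0.03 to 0.22), did not pass edgeR's quasi-likelihood test (adjusted p = 0.781). Without replicate 1 at 48 h that difference was 0.04 (adjusted p = 0.845 by edgeR). GUSB, with the fewest counts, had the widest ratios, 0.969, 1.11 and 0.991 at 24 h and 1.02, 1.04 and 0.890 at 48 h. They lay on both sides of 1 at each time point with a mean of 1.00 ± 0.0732 over the 6 pairs. In replicate 1 at 48 h, in which GUSB was at 0.326 times its usual 48 h share, the control and miR-25 sample differed by only 1.02-fold.

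TUBB was at 1.00, 1.04 and 0.985 times the control at 24 h and at 1.07, 1.03 and 0.996 times at 48 h. CLTC was at 1.03, 1.01 and 1.06 times at 24 h and at 1.03, 0.997 and 0.957 times at 48 h. The CLTC pairs were all above 1 at 24 h and on both sides at 48 h, and the TUBB pairs were on both sides at both. Counted over the 6 genes, 3 were on 1 side in all 3 pairs at 24 h (CLTC above, PGK1 and HPRT1 below), where 31.6% of the 136 genes were, and 2 at 48 h (HPRT1 above, PGK1 below), where 35.3% were. These counts are near the share of the panel.

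The choice of reference gene set how far a ratio of miR-25 to control could move within a pair. A target read against the housekeeping gene with the lowest ratio of a pair instead of the highest would come out higher by 1.06-fold, 1.16-fold and 1.08-fold in replicates 1, 2 and 3 at 24 h and by 1.31-fold, 1.06-fold and 1.17-fold at 48 h. The largest gap, 1.31-fold, was that between PGK1 and HPRT1 in replicate 1 at 48 h. At 24 h the genes at the ends were GUSB and CLTC in replicate 1, GAPDH and GUSB in replicate 2, and PGK1 and CLTC in replicate 3. The geometric mean of the 5 internal reference genes had ratios of 0.990, 1.02 and 1.01 at 24 h and 1.05, 1.01 and 0.980 at 48 h. Read against GAPDH alone, a target of constant share would have come out at the inverse of the GAPDH ratios above, which ranged from 0.957 to 1.04.

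The direction of these differences held for shares of the panel total and depended on that scaling. Positive control probes are spiked into each reaction at a fixed amount, and scaled to them the log2 fold changes of all 136 genes moved up by a median of 0.10 at 24 h, 0.31 at 48 h and 0.20 over both time points. Under that scaling 4 of the 6 genes were called higher with miR-25 at 48 h by edgeR's quasi-likelihood test, GAPDH (0.34), HPRT1 (0.39), TUBB (0.36) and CLTC (0.30), as were 61 of the 136 genes. GUSB and PGK1 were at 0.26 and 0.24 at 48 h and did not pass. These values are to be read against the shift of 0.31 in the median gene.

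In the 2 comparison lists, 0 of the 17 general-function genes and 0 of the 8 cell cycle genes were called with miR-25 by edgeR, DESeq2 or limma at 24 h, at 48 h, over both time points or for the difference. Without replicate 1 at 48 h edgeR called 1 of the 8 cell cycle genes higher at 24 h (CCND1) and 0 of the 17, against 2 higher and 1 lower of all 136. At an unadjusted p under 0.05, edgeR had 1, 1, 2 and 1 of the 17 and 2, 0, 2 and 1 of the 8, against 9, 17, 26 and 8 of the 136. The medians of the log2 fold change over both time points were −0.0024 for the general-function genes, 0.02 for the cell cycle genes and 0.0080 for the housekeeping genes, against 0.01 for all 136.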

How the data were processed

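RNA of the 12 samples had been hybridised to reporter and capture probes of a 199-gene nCounter stem cell panel. The authors deposited raw counts of barcodes per probe, read with nSolver 3.0 per the submitters' processing notes, before any background correction or scaling, so depth is the total count of each sample. The lowest value in the table is 1. Background correction, positive probe scaling and division by the sample average, which the study's methods describe, were not part of these values. Probes were named through the panel sheet (193 genes) and the RefSeq table for GRCh38.p14 (6 genes, PGK1 among them).

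Samples were grouped by treatment and time from their labels. Counts were divided by the total over the panel genes. The 136 genes that averaged 20 counts or more over the 12 samples were tested with the quasi-likelihood test of edgeR 4.0.16 in R 4.3.3 with Benjamini-Hochberg adjustment over all 136 and a threshold of 0.05. miR-25 was compared with control in 1 fit of the 12 samples with the transfection pair as a block, since the labels give both samples of a replicate the same transfection efficiency. The deviations of the 2 samples of a pair from their group means correlated at 0.283 to 0.883 across genes in the 6 pairs. Across time points the same replicate numbers gave −0.0958 to 0.0565 and were not used as a block. Time was compared in the 6 control samples and in the 6 miR-25 samples. Intervals of fold changes are 95% intervals with the degrees of freedom of the fit, and intervals of shares are Wilson intervals, which cover counting error only. P-values measure only the spread between these samples of 1 cell line. The paper states in general that its data come from independent experiments. It does not say for this assay whether replicates were separate cultures, so the spread may be technical. Replicates of a group differed by more than counting error (chi-square per degree of freedom 2.52 to 73.1), so none was counted as a repeat of another.

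Alternatives were TMM, DESeq2 1.42.0, limma 3.58.1 (pseudocount of 1), 3 other scalings (the total without the 6 genes, the 5 internal reference genes, the 6 positive control probes), other filters on low counts, subtraction of the negative control probes, other blocks and sample sets, and each replicate left out. The scripts were tested on simulated data. Tables and plots were made with Python 3.11.15, numpy 2.4.6, pandas 2.3.3, scipy 1.17.1 and matplotlib 3.10.9.

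The members and lists were chosen with earlier results of these data known. Genes named are the 6 housekeeping genes, genes over 5% of the panel total, the 3 genes most like each housekeeping gene, the 5 steadiest genes among those averaging 100 counts or more, and the 2 highest and 2 lowest of each comparison list. 1 gene of these and the probe target stretches are not reported here.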

Additional observations from a re-analysis of the deposited data

Results flagged for a closer look

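HPRT1 with miR-25 was below the control in 3 of 3 pairs at 24 h and above it in 3 of 3 pairs at 48 h. This opposite direction is what marked it. Some of these ratios were close to none, with log2 values of −0.013 and −0.014 in replicates 2 and 3 at 24 h. In replicate 2 at 48 h the value was 0.0023. Counting error alone would give HPRT1 an SD of 0.026. The difference between the time points was 0.10 on the log2 scale and did not pass edgeR's quasi-likelihood test (adjusted p = 0.781). It was 0.04 without replicate 1 at 48 h (adjusted p = 0.845 by edgeR).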

How the results depend on the processing

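Of the values and counts that answer a comparison, over all alternatives, 219 kept their size and direction and 57 moved, and of the values of single genes 538 kept direction and side of the threshold, 57 reversed, some of them past the threshold, and 17 kept direction and passed the threshold only under the alternative. The cause of the changes below was not tested. Counting error was largest for GUSB, an SD of 0.064 on the log2 scale against a measured 0.58.

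Scaling to the positive control probes moved the median of all genes by −0.74 for 48 h against 24 h in controls, by −0.53 in miR-25 samples and by 0.21 for the difference of the miR-25 effects. Under it the controls had 27 genes called, 1 of them a housekeeping gene (CLTC), and values that reversed without passing were GAPDH at −0.66, GUSB at −0.26, PGK1 at −0.76 and TUBB at −0.66, and the miR-25 samples had 49 genes called, 3 of them housekeeping genes (CLTC, PGK1 and HPRT1, the last reversed at −0.53), and values that reversed without passing were GAPDH at −0.40, GUSB at −0.19 and TUBB at −0.46. For miR-25 against control it gave GAPDH 0.069, HPRT1 0.076 and PGK1 0.067 at 24 h, none of them called. It called 61 genes at 48 h and 68 over both, 4 of them in each case the housekeeping genes GAPDH, HPRT1, TUBB and CLTC. Reversed and called were CLTC at 48 h (0.30) and GAPDH over both (0.20), and reversed and not called were GUSB (0.26) and PGK1 (0.24) at 48 h and GUSB (0.19) and PGK1 (0.15) over both. The differences between time points were CLTC 0.16, GUSB 0.13 and PGK1 0.17. The SDs were 0.56 for CLTC, 0.37 for GAPDH, 0.80 for GUSB, 0.43 for HPRT1, 0.42 for PGK1 and 0.49 for TUBB.

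With TMM the SD was 0.14 for GAPDH, 0.21 for HPRT1 and 0.084 for TUBB, TUBB was at −0.0073 over time in controls, GUSB at −0.00064 and TUBB at −0.018 at 24 h, and CLTC at −0.0042 over both. TMM called 17 genes over time in miR-25 samples against 10, and 1 gene against 0 for the difference. DESeq2 called 22 genes over time in controls against 7, 33 against 10 in miR-25 samples with 1 housekeeping gene against 0, and 1 against 0 both for the difference and over both time points. Its values over time in controls were −0.0035 for PGK1 and −0.034 for TUBB, and those for miR-25 were −0.0083 for GUSB and −0.026 for TUBB at 24 h and −0.0045 for CLTC over both. With the total without the 6 genes, the SD of GAPDH was 0.15, PGK1 was at 0.079 over time in miR-25 samples, TUBB at −0.00074 at 24 h, CLTC at 0.0038 at 48 h, and 1 gene was called for the difference and 2 over both. Internal reference gene scaling called 4 genes over time in miR-25 samples. limma gave GUSB 0.00038 over both and called 1 gene there. Without a filter 6 genes were called over time in miR-25 samples, 1 for the difference, 3 at 48 h and 2 over both. With all 12 samples in 1 fit 17 genes were called over time in miR-25 samples, and with each time point alone 3 genes at 24 h and 3 at 48 h. Summed transfections gave HPRT1 −0.0031 and PGK1 0.011 over time, against 0.04 and −0.01 in the miR-25 samples alone.

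Without the replicate block of transfection pairs 0 genes were called at 48 h against 1, and with the replicate block by number over time 0 genes were called in the controls and 0 in the miR-25 samples. The block changed no call of a housekeeping gene.

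With each replicate left out, 0 to 3 genes were called at 24 h, 0 to 2 at 48 h, 0 to 2 over both, 1 to 54 over time in controls and 0 to 62 over time in miR-25 samples, of which 0 to 3 and 0 to 5 were housekeeping genes. Log2 fold changes ranged at 24 h from −0.029 to 0.068 for GUSB and −0.010 to 0.030 for TUBB, and at 48 h from −0.037 to 0.020 for CLTC and −0.11 to 0.048 for GUSB. Over both they ranged from −0.013 to 0.0087 for GAPDH, −0.042 to 0.039 for GUSB and −0.0028 to 0.045 for HPRT1, and for the difference from −0.077 to 0.0069 for PGK1 and −0.15 to 0.018 for GUSB. Over time in controls they ranged from −0.22 to 0.17 for PGK1, −0.17 to 0.014 for HPRT1 and −0.035 to 0.16 for TUBB, and in miR-25 samples from −0.21 to 0.079 for PGK1, −0.0071 to 0.65 for GUSB and −0.13 to 0.15 for HPRT1. The SD of PGK1 was 0.14 without replicate 1 at 48 h. In controls 54 genes were called over time without replicate 1 at 48 h, 1 without replicate 2 at 48 h and 2, 2 and 1 without each replicate at 24 h. In miR-25 samples 62 were called without replicate 1 at 48 h, 1 without replicate 2, 2 without replicate 3 and 0 without any of the replicates at 24 h. For miR-25 against control, leaving out replicate 1 at 48 h gave 3 genes at 24 h and 2 over both, and at 48 h 0 genes were called without replicate 3 at 24 h and 2 without replicate 3 at 48 h.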
